A study of Homo sapiens with 5 samples.

Results

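The aldo-keto reductase genes described here in A549 cells are 6: AKR1C1, AKR1C2, AKR1C3, AKR1B1, AKR1B10 and AKR1A1. Members were taken by symbol from the gene tables of 5 libraries, and 6 of the 58929 genes in those tables are members. All 6 were found in every library and all 6 passed the filter on low counts in every fit.

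Aldo-keto reductases are soluble enzymes that reduce aldehydes and ketones to alcohols with NADPH as the electron donor. The AKR1C enzymes act on steroids and prostaglandins, and the AKR1B and AKR1A enzymes act on sugar, lipid and other reactive aldehydes. A549, an established human lung adenocarcinoma line, carries a mutated KEAP1. KEAP1 normally leads to the degradation of NRF2, a transcription factor whose targets include several of these reductases, and the line is known for high levels of them. The family is also of practical interest because its members reduce carbonyl groups of anticancer drugs and products of lipid peroxidation.

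The study compared A549 cells with stable depletion or stable overexpression of RBMS1, an RNA-binding protein. The 5 libraries, 1 for each line, are RBMS1 knockdown with hairpin sh1088, RBMS1 knockdown with hairpin sh1196, a short hairpin (sh) control, RBMS1 overexpression (named R1A), and a pCDH control. Each hairpin line and each vector line is thus a single library, and nothing in the labels gives separate cultures, so the spread behind each p-value is that between single libraries and may be technical. All cells were held in cycloheximide at 100 ug/mL for 15 min and lysates were digested with RNase I for 5 min, after which RNA of the 80S fractions was sequenced. The series' design text calls them ribosome footprint libraries, while the molecule label reads total RNA, and "footprint" is used in the sense of the design text. More footprints on an mRNA can come from more mRNA or from more ribosomes on each, and these libraries alone cannot tell these apart.

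RBMS1 itself, the check of the labels, had 18.3 CPM (counts relative to the size of the library) in sh1088, 13.4 in sh1196 and 31.0 in the sh control, and 37.0 CPM in the overexpression library against 24.7 in the pCDH control. CPM are scaled here by the trimmed mean of M values (TMM). RBMS1 was lower in both hairpin libraries and higher in the overexpression library than in its own control, by 1.51-fold in the overexpression pair. Total expected counts were 10327747 to 13980843, and 37.7% to 66.3% of them fell on nuclear protein-coding genes, with the sh control and sh1088 (42.2%) at the low end. Of the marker genes checked, the epithelial keratins KRT8 and KRT18 had 5138 to 14017 counts in each library. The other epithelial markers were lower: KRT19 had 429 to 1510 counts, CDH1 438 to 1913 and EPCAM 33 to 258. PTPRC and CD3E (immune), VWF (endothelial) and NKX2-1 and SFTPA1 (lung lineage) had 0 in each. The other lung lineage markers, SFTPB and SFTPC, had at most 4 counts in a library, so the 4 alveolar lineage markers checked were at or near 0. The endothelial genes CDH5 and PECAM1 had at most 9. Of the 3 fibroblast markers, COL1A2 and PDGFRB had at most 4 counts and COL1A1 had 48, 35, 10, 33 and 167 in sh1088, sh1196, the sh control, overexpression and the pCDH control. The myeloid marker CD68 had 216, 736, 172, 292 and 1531 counts in the same order. Both were highest in the pCDH control, and their part in the results was not tested.

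AKR1C1, AKR1C2 and AKR1C3 lie side by side on chromosome 10 (chr10:4963253-4983283, chr10:4987400-5018031 and chr10:5035354-5107686 in GRCh38, GENCODE 29), AKR1C2 on the minus strand. AKR1B1 (minus strand) and AKR1B10 are neighbours on chromosome 7 (chr7:134442350-134459284 and chr7:134527592-134541408), and AKR1A1 is on chromosome 1 (chr1:45550543-45570049). No member overlaps another gene on its own strand. The coding sequences of AKR1C1 and AKR1C2 differ at 19 of 972 bases, which is 98.0% identity, and their longest identical run is 189 bases. AKR1C3 is 91.9% identical to AKR1C1, AKR1B1 is 76.1% identical to AKR1B10, and AKR1A1 is at most 59.0% identical to any other member. The stretch below, bases 103 to 162 of the coding sequence in exon 2, holds 10 of the AKR1C1 and AKR1C2 differences, and is shown because a footprint from it tells the copies apart. Capitals mark the positions at which AKR1C1 and AKR1C2 differ. It lies at chr10:4965932-4965991 (plus strand) for AKR1C1, chr10:5001604-5001663 (minus strand) for AKR1C2 and chr10:5096428-5096487 (plus strand) for AKR1C3.
AKR1C1: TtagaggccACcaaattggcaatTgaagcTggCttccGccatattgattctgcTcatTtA
AKR1C2: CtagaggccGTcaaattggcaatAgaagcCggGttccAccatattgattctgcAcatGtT
AKR1C3: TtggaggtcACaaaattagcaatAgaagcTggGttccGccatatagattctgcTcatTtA
At these 10 positions AKR1C3 has the AKR1C1 letter 8 times and the AKR1C2 letter 2 times. The next stretch, bases 848 to 907 in exon 8 (chr10:4975852-4975911 for AKR1C1 and chr10:4991853-4991912 for AKR1C2), is shown for the opposite reason: a footprint from it fits AKR1C1 and AKR1C2 equally.
AKR1C1 and AKR1C2: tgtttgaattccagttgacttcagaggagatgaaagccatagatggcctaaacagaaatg
AKR1C3: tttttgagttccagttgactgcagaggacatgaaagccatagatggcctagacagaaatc

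How much of each coding sequence can name its gene was measured by cutting it into every possible window of 30 and of 45 bases and searching all GENCODE 29 transcripts. Mean fragment lengths, inferred from the deposited lengths and effective lengths of genes, were 40.9 to 52.3 bases, so the 45-base windows are the nearer model. Of these, 41.4% for AKR1C1 and 39.3% for AKR1C2 occurred in no other gene, compared with 75.5% for AKR1C3. AKR1C1 shared 518 of its 928 windows with AKR1C2. The corresponding shares were 89.0% for AKR1B1, 67.7% for AKR1B10 and 100.0% for AKR1A1. The gene sharing the most windows with AKR1B1 was the processed pseudogene AKR1B1P7, with 38 of 907. For AKR1B10 that gene was AKR1B15, with 203 of 907. All 30 expected counts of the members, 6 genes in 5 libraries, were whole numbers, and the deposited posterior standard deviation of these counts was between 0 and 0.10. Such values leave no read divided between genes in the estimate. How reads that fit several genes were handled is not given in the sources used here. AKR1C1 and AKR1C2 are therefore given apart and as a sum.

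**Figure D1:**
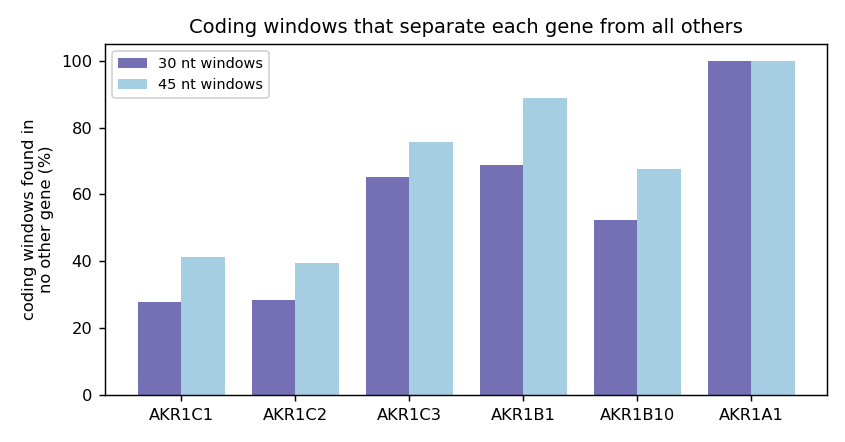
Share of the coding windows of each member, in percent, that occurs in no other gene of GENCODE 29, for windows of 30 bases (dark) and 45 bases (light). AKR1C1 and AKR1C2 stand lowest, at 27.9% and 28.5% for 30 bases, and AKR1A1 is at 100.0%.

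Levels of different genes are compared per length, in the authors' TPM, which divides each count by the gene's effective length and scales the library to a fixed total. AKR1C3 had 498.5, 307.8, 230.5, 1054 and 419.2 TPM in sh1088, sh1196, the sh control, overexpression and the pCDH control. AKR1B1 had 369.4, 1403, 244.5, 1022 and 659.2 TPM in the same order, and AKR1C2 had 441.3, 322.0, 270.8, 509.9 and 395.8 TPM. These 3 genes held the top 3 places in 4 of the libraries, and in the overexpression library AKR1B10 took the third place. AKR1B10 had 181.6, 149.7, 84.8, 714.3 and 370.6 TPM, whereas AKR1C1 had 39.2, 20.7, 27.0, 113.6 and 53.1 TPM and AKR1A1 had 27.7, 37.0, 17.8, 43.6 and 41.8 TPM. Among protein-coding genes ranked by TPM within a library, AKR1B1 was number 5 in sh1196 and number 12 in overexpression, and AKR1C3 was number 9 in overexpression. AKR1C1 ranked between 460 and 2927 and AKR1A1 between 1108 and 2326, so the family spans the abundant and the middle range of this cell line. The order of neighbours changed with the library: AKR1C3 led in sh1088 and overexpression, AKR1B1 led in sh1196 and the pCDH control, and AKR1C2 led in the sh control. With 1 library a line these orders have no test.

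TPM also depends on the length a count is divided by. The deposited length, an average over transcripts weighted by their estimated abundance, was 1262 to 2632 bases for AKR1C1 against 705 to 887 bases for AKR1C2. As counts per unique 45-base coding window scaled to the protein-coding total (the right panel of the level plot), a setting added after seeing the data, AKR1C1 had 1.23, 0.289, 1.58, 1.55 and 0.324 in sh1088, sh1196, the sh control, overexpression and the pCDH control. AKR1A1 had 0.123, 0.0991, 0.132, 0.0988 and 0.0652 on that scale. AKR1C1 was thus above AKR1A1 in every library per unique window, whereas by TPM it was below it in sh1196, at 20.7 against 37.0. At the top, AKR1C2 led per unique window in sh1088 (4.46, against 3.11 for AKR1C3) and in the pCDH control (1.75), where TPM puts AKR1C3 and AKR1B1 first. This scale divides all counts of a gene by its unique windows. If reads from shared windows were counted too, genes with few unique windows, AKR1C1 and AKR1C2, stand too high on it. How such reads were handled is not given, so these orders hold for this measure only. The lengths also differ between libraries: AKR1B1 was given 699 bases in the pCDH control and 1113 bases in the sh control, which moves TPM without any change in counts. Comparisons between libraries therefore rest on scaled counts.

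**Figure D2:**
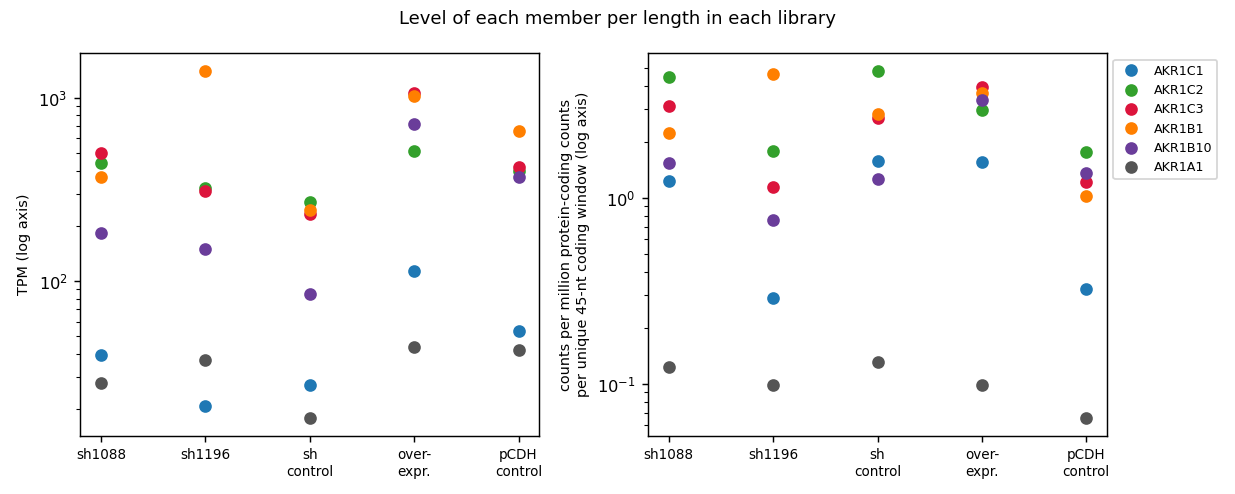
Level of each member (colour) in each library on log axes, in the authors' TPM (left) and as counts scaled to the protein-coding total per unique 45-base coding window (right). AKR1C2, AKR1C3 and AKR1B1 hold the top places in sh1088, sh1196 and the sh control on both scales, and AKR1B10 is among the top 3 in overexpression on both scales. In the pCDH control the scales differ: on the right AKR1B10 (1.35) lies above AKR1C3 (1.21) and AKR1B1 (1.02), which lead by TPM.

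AKR1C1, an enzyme that inactivates progesterone by reducing it, had 243.1 CPM in sh1088, 58.7 in sh1196 and 331.9 in the sh control, and 327.3 CPM in overexpression against 66.2 in the pCDH control. The libraries fell into a low and a high set, with sh1196 and the pCDH control at 0.18 and 0.20 of the sh control and the other libraries nearer to it. AKR1C2, which reduces the androgen dihydrotestosterone, had 840.4, 346.2 and 960.1 CPM in sh1088, sh1196 and the sh control, and 591.1 CPM in overexpression against 340.7 in the pCDH control. The same libraries were at the bottom, and overexpression stood between them and the sh control. Added up, which removes any error in sorting reads between the copies, the pair had 1083 CPM in sh1088, 404.9 in sh1196 and 1292 in the sh control, and 918.4 CPM in overexpression against 406.9 in the pCDH control.

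AKR1C3, which makes testosterone from androstenedione and acts as a prostaglandin F synthase, had 1127 CPM in sh1088, 422.3 in sh1196 and 1026 in the sh control, and 1522 CPM in overexpression against 451.9 in the pCDH control. Its highest level was in overexpression, at 1.46-fold the sh control, where AKR1C1 stood at 0.97 and AKR1C2 at 0.61 of the sh control. The sh1196 and pCDH libraries were again the lowest.

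AKR1B1, the aldose reductase that opens the polyol pathway from glucose to sorbitol, had 932.9 CPM in sh1088, 1983 in sh1196 and 1241 in the sh control, and 1625 CPM in overexpression against 440.2 in the pCDH control. Of the 6 members AKR1B1 alone had its highest level in sh1196 by TMM, while by total counts, a scaling added after seeing the data, AKR1A1 did so too (61.1 CPM without TMM). The hairpin libraries lay on either side of their control.

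AKR1B10, its relative that reduces retinal and lipid aldehydes, had 486.3 CPM in sh1088, 248.0 in sh1196 and 420.6 in the sh control, and 1130 CPM in overexpression against 443.0 in the pCDH control. Overexpression stood above each other library by at least 2-fold, and 4 of the 5 libraries lay between 248.0 and 486.3 CPM. For AKR1B10 alone the pCDH control was not below the sh control.

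AKR1A1, the widely expressed aldehyde reductase, had 59.2 CPM in sh1088, 49.0 in sh1196 and 67.2 in the sh control, and 50.7 CPM in overexpression against 32.4 in the pCDH control. Its values ranged less between libraries than those of the other members. It had 539 to 631 counts in a library, the fewest of the 6 members in each.

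**Figure D3:**
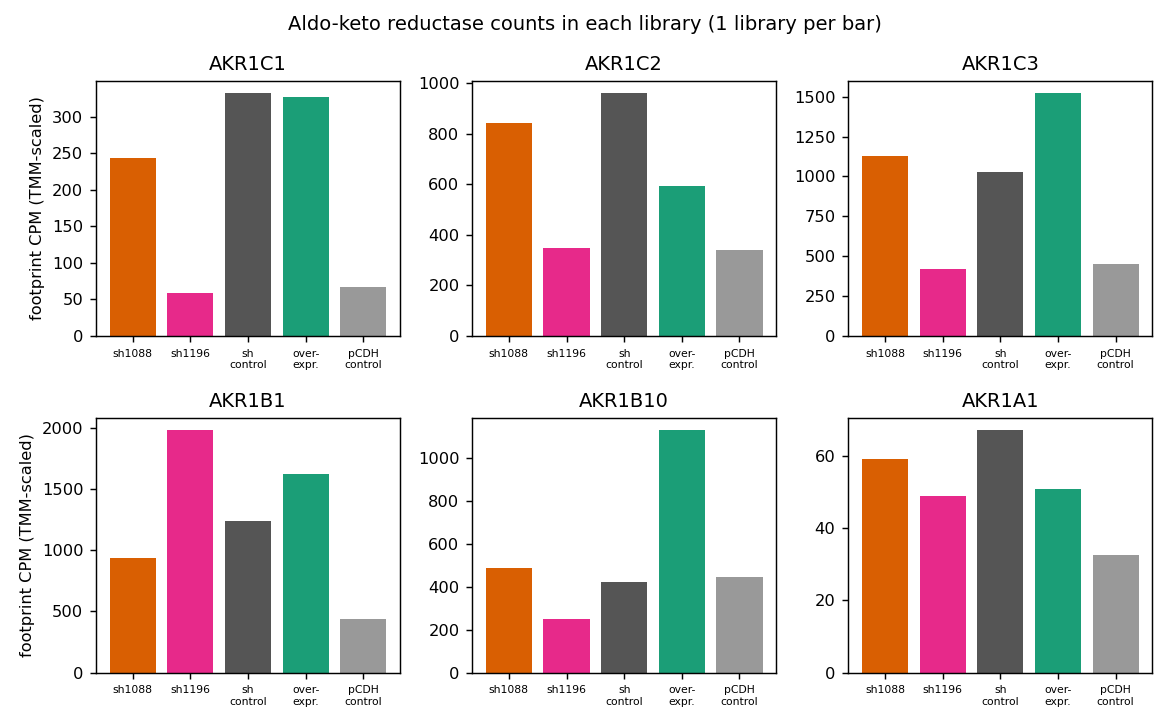
TMM-scaled footprint CPM of each member (panel) in each of the 5 libraries, 1 library a bar, with axes starting at 0. AKR1C1, AKR1C2 and AKR1C3 are low in sh1196 and in the pCDH control, AKR1B1 is highest in sh1196 at 1983 CPM, and AKR1B10 is highest in overexpression at 1130 CPM.

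In the knockdown comparison no member passed the test. With both hairpin libraries set against their control in 1 fit, the log2 fold changes were -1.10 for AKR1C1 (SE 0.81, edgeR quasi-likelihood adjusted p = 0.845), -0.66 for AKR1C2 (SE 0.67, adjusted p = 0.870) and -0.37 for AKR1C3 (SE 0.72, adjusted p = 0.937). For AKR1B1 the edgeR value was 0.26 (SE 0.71, adjusted p = 0.960), for AKR1B10 -0.16 (SE 0.61, adjusted p = 0.972) and for AKR1A1 -0.28 (SE 0.45, adjusted p = 0.923). Across all 14913 genes tested edgeR called 0.0%, or 0 genes, with 876 at an unadjusted p under 0.05 (5.87%), none of them a member. DESeq2 called 17 genes and limma-voom 0, again with 0 members. The test has 1 residual degree of freedom. The same edgeR fit put RBMS1 at -0.93 (SE 0.45, adjusted p = 0.828).

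The large errors came with a wide gap between the hairpin lines, although both hairpins target RBMS1. On the log2 scale sh1088 against the sh control had 2 members above and 4 below 0, from -0.41 for AKR1C1 (95% counting interval -0.49 to -0.33) to 0.25 for AKR1B10 (0.18 to 0.31), and 0 of 6 reached 2-fold (3.51% of 10161 genes were 2-fold higher and 3.33% lower). In sh1196 against the same control 3 of 6 members were lower by 2-fold or more, against 12.4% of 10172 genes, and 0 were higher by that much, against 10.9%. These were AKR1C1 at -2.47 (-2.59 to -2.36), AKR1C2 at -1.44 (-1.50 to -1.39) and AKR1C3 at -1.25 (-1.30 to -1.20). AKR1B1 was at 0.70 (0.67 to 0.74), AKR1B10 at -0.74 (-0.81 to -0.67) and AKR1A1 at -0.43 (-0.60 to -0.26). Both comparisons share the sh control. Both hairpin libraries lay below the sh control for AKR1C1, AKR1C2 and AKR1A1, 3 of 6 members, and 34.2% of the genes tested did so. By total counts this held for 1 member, AKR1C1. That scaling moved the median of all genes in the knockdown fit to 0.62, against 0.066 by TMM. By total counts sh1196 against the sh control had 1 member at least 2-fold lower, AKR1C1 at -1.65, and 1 at least 2-fold higher, AKR1B1 at 1.53, where 3.09% and 44.6% of genes were and the median of all genes was 0.89. AKR1C2 (-0.62) and AKR1C3 (-0.43) did not reach 2-fold on that scale, and lay below that median by more than 2-fold.

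Set directly against each other, sh1196 was 2-fold or more below sh1088 for 3 members (7.2% of 10497 genes were) and as far above it for 1 (6.02% were). The log2 ratios were -2.07 for AKR1C1 (95% counting interval -2.19 to -1.95), -1.30 for AKR1C2 (-1.35 to -1.24), -1.43 for AKR1C3 (-1.48 to -1.38) and 1.07 for AKR1B1 (1.04 to 1.11). AKR1B10 was at -0.99 (-1.05 to -0.92), just inside 2-fold, and AKR1A1 at -0.29 (-0.46 to -0.12), which turns to 0.33 when libraries are scaled by total counts alone. The members' median was -1.14 and the median of all genes 0.022. For RBMS1 the ratio between these hairpin libraries was -0.46 (-0.78 to -0.15). The share of counts on nuclear protein-coding genes was 66.0% in sh1196 and 42.2% in sh1088. Its part in these ratios was not tested beyond rescaling on those genes alone. There 5 of 6 members passed 2-fold, AKR1B1 upward at 1.03 and the rest of these downward, AKR1B10 at -1.03 among them. The share of all genes past 2-fold was not computed for that scaling.

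In the overexpression library all 6 members were above the pCDH control. At least 2-fold higher were 4 of 6, where 15.0% of 10844 genes were. On the log2 scale AKR1C1 was at 2.32 (95% counting interval 2.22 to 2.41), AKR1B1 1.90 (1.86 to 1.93), AKR1C3 1.76 (1.73 to 1.80) and AKR1B10 1.36 (1.32 to 1.40). AKR1C2 was at 0.81 (0.76 to 0.86) and AKR1A1 at 0.66 (0.49 to 0.83), and the sum of AKR1C1 and AKR1C2 at 1.19 (1.14 to 1.23). The members' median was 1.56 against 0.068 for all genes. This is 1 library against 1, so there is no replicate check and no p-value, and the intervals hold for counting error alone, because copies made by PCR are not separate molecules.

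Against the sh control 1 member, AKR1B10, was at least 2-fold higher by TMM, at 1.40 (95% counting interval 1.35 to 1.46), where 8.51% of 10127 genes were. AKR1C3 was at 0.55 (0.51 to 0.58) and AKR1B1 at 0.37 (0.33 to 0.40), AKR1C1 at -0.042 (-0.11 to 0.030), AKR1A1 at -0.43 (-0.60 to -0.26) and AKR1C2 at -0.72 (-0.77 to -0.67). The median was 0.16, with 3 members higher and 3 lower. By total counts all 6 lay above the sh control and 3 were at least 2-fold higher, AKR1B10 at 2.14, AKR1C3 at 1.28 and AKR1B1 at 1.10, where 37.0% of genes were and the median of all genes was 0.78. The controls themselves differed in these genes: in the pCDH control 5 of 6 members were at least 2-fold lower than in the sh control, where 18.7% of 10431 genes were. That log2 ratio was -2.32 for AKR1C1, -1.49 for AKR1B1, -1.48 for AKR1C2, -1.17 for AKR1C3, -1.04 for AKR1A1 and 0.084 for AKR1B10. By total counts 1 member, AKR1C1 at -1.47, was at least 2-fold lower in the pCDH control than in the sh control, where 5.6% of genes were, and the median of all genes was 0.86. By TMM the overexpression library was the highest of the 5 for 2 members, AKR1C3 and AKR1B10 (17.9% of 15827 genes), and the pCDH control the lowest for 3, AKR1C2, AKR1B1 and AKR1A1 (29.4%). The comparisons of overexpression share a library with each other and with that of the controls, so their values are not independent.

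**Figure D4:**
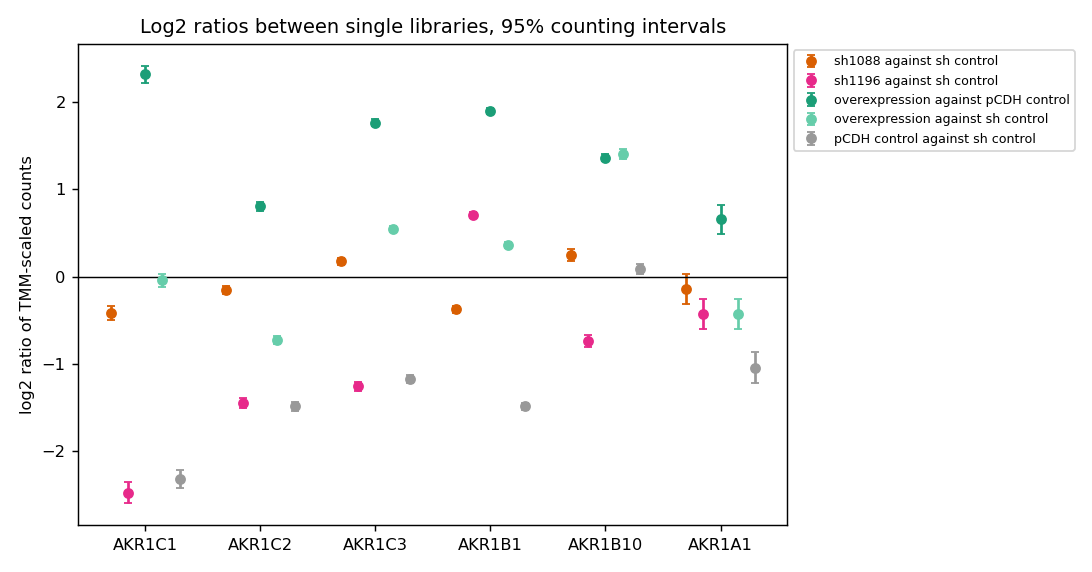
Log2 ratios of TMM-scaled counts between single libraries for each member, with 95% counting intervals (bars, often smaller than the points) and a line at 0. Overexpression lies above 0 for all 6 members against the pCDH control (0.66 to 2.32) and on both sides of 0 against the sh control (-0.72 to 1.40; all above 0 by total counts, not drawn), and the hairpins differ most for AKR1C1 (-0.41 and -2.47).

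Over all 5 libraries, with RBMS1 coded as knockdown, control and overexpression and a term for the vector, the slope was above 0 for each member and passed the test for none. For AKR1C1 the log2 change was 1.65 per step of the RBMS1 level (SE 0.63, edgeR adjusted p = 0.729, unadjusted p = 0.0264). At an unadjusted p under 0.05, 3.34% of 15827 genes had a slope above 0, and AKR1C1 was the 1 member among them. After adjustment 0.00632% of genes, 1 gene, passed. For AKR1C3 the slope was 1.001 (SE 0.58, edgeR adjusted p = 0.749) and for AKR1C2 0.74 (SE 0.49, edgeR adjusted p = 0.765). AKR1B1 had 0.72 (SE 0.66, edgeR adjusted p = 0.834), AKR1B10 0.71 (SE 0.51, edgeR adjusted p = 0.782) and AKR1A1 0.46 (SE 0.37, edgeR adjusted p = 0.810). Without sh1088 AKR1C1 had a slope of 2.402 and an edgeR adjusted p of 0.00826 in a fit that called 136 of 15583 genes (0.873%), while without any other single library it stayed outside the threshold (adjusted p 0.365 to 0.847). Without the overexpression library the slope of AKR1B1 was -0.27, and without the pCDH control -0.26.

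The make-up of the family within a library needs no scaling between libraries. AKR1C1 made up 22.4% of the AKR1C1 and AKR1C2 counts in sh1088 (exact 95% interval 21.6 to 23.3), 14.5% in sh1196 (13.5 to 15.5), and 25.7% in the sh control (24.9 to 26.5). In overexpression it made up 35.6% (34.7 to 36.5), against 16.3% in the pCDH control (15.4 to 17.1). The ratio of the copies differed between libraries, and the share in overexpression exceeded that in each other library beyond counting error. By TPM the shares were 8.16%, 6.05%, 9.07%, 18.2% and 11.8% in the same order of libraries, lower throughout and with overexpression again at the top. The pCDH control lay above the sh control and sh1088 by TPM and below both by counts, so the order of those libraries depends on the measure.

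AKR1C3 made up 51.0% of the counts of the 3 AKR1C genes in sh1088, 51.1% in sh1196 and 44.3% in the sh control, and 62.4% in overexpression against 52.6% in the pCDH control. Of the AKR1B1 and AKR1B10 counts, AKR1B10 held 34.3% in sh1088, 11.1% in sh1196 and 25.3% in the sh control, and 41.0% in overexpression against 50.2% in the pCDH control. The low share in sh1196 joins the highest AKR1B1 level with what was, by TMM, the lowest AKR1B10 level. By total counts AKR1B10 was lowest in the sh control, at 290.5 CPM against 309.4 in sh1196. AKR1B1 accordingly made up 63.8% of the counts of all 6 members in sh1196, against 25.3%, 30.7%, 31.0% and 24.8% in sh1088, the sh control, overexpression and the pCDH control. All 6 together took 0.715% of nuclear protein-coding counts in sh1088, 0.587% in sh1196 and 0.740% in the sh control, and 0.954% in overexpression against 0.333% in the pCDH control.

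**Figure D5:**
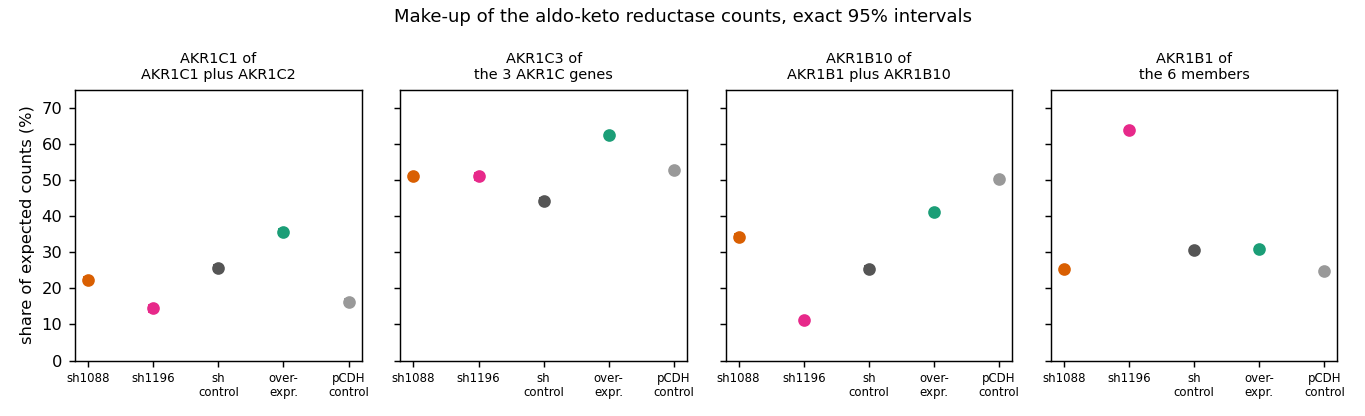
Make-up of the aldo-keto reductase counts in each library as a share of expected counts in percent, with exact 95% intervals (smaller than the points). AKR1B1 reaches 63.8% of the 6 members in sh1196 and stays between 24.8% and 31.0% elsewhere, and AKR1C1 reaches 35.6% of the AKR1C1 and AKR1C2 counts in overexpression.

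The AKR1C genes were low in the same libraries, and their promoters are alike, so the last 120 bases before each annotated start site are printed (RefSeq, GRCh38.p14). Capitals mark a CCAAT box, here on the opposite strand as ATTGG. Positions are chr10:4963295-4963414 (plus strand) for AKR1C1, chr10:5003858-5003977 (minus strand) for AKR1C2, and chr10:5048661-5048780 and chr10:5094294-5094413 (plus strand) for the starts a and b of AKR1C3.
AKR1C1: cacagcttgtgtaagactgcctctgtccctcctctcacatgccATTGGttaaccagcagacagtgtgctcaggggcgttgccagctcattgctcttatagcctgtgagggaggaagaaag
AKR1C2: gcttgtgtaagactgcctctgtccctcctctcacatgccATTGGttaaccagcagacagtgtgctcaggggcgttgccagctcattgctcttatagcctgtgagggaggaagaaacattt
AKR1C3, start a: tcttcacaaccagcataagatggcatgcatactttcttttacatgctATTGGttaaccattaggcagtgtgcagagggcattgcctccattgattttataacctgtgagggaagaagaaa
AKR1C3, start b: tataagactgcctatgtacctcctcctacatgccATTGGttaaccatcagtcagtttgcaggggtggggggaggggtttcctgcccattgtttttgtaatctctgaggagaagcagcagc
Over 300 bases (250 before to 50 after the start) the AKR1C1 and AKR1C2 promoters were 93.5% identical and those of AKR1C1 and AKR1C3 73.5% (start a) and 71.0% (start b). CCAAT, searched on both strands, was in all 4 AKR1C promoters and both AKR1B1 promoters searched, and in 34.6% of all 35116 promoters. The AKR1B1 windows overlap and hold the same CCAAT site. It lies at -98 to -94 from the start in the first window, and at 41 to 45, past the start, in the second. TATAAA, searched in the same way, was in start a of AKR1C3 alone among them, on the opposite strand as TTTATA. It was in 11.5% of all promoters. The core of the antioxidant response element, TGACNNNGC, through which NRF2 acts, had no match in these windows or in that of AKR1A1, and 13.3% of all promoters had one. No promoter of AKR1B10 was available, so that member was not searched for any of these motifs. A match is a description and not a bound site, and no match says only that these letters are not in the window.

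Base composition differed between the overexpression pair: across 10287 protein-coding genes the log2 ratio fell with the GC content of the transcript (Spearman rho -0.58, across genes, which are not independent replicates). For overexpression against the sh control rho was -0.12 across 9604 genes. Mean fragment length, inferred from the deposited effective lengths, was 40.9 bases in overexpression and 52.3 in the pCDH control. With the GC trend against the pCDH control taken out, a setting added after seeing the data, the log2 ratio was 1.83 for AKR1C1, 0.23 for AKR1C2, 1.23 for AKR1C3, 2.11 for AKR1B1, 1.18 for AKR1B10 and 1.08 for AKR1A1. AKR1C2, at 40.2% GC on this measure, lost most of its difference, and AKR1A1, at 56.7% GC, gained. GC was that of the longest protein-coding transcript of each gene, untranslated parts included. In the coding sequence alone GC was 47.5% for AKR1C1, 47.6% for AKR1C2 and 46.4% for AKR1C3. A trend on coding GC was not computed, so these trend-removed values hold for transcript GC only. All 6 members stayed above 0 against the pCDH control. Against the sh control, with its own trend taken out, AKR1C1 was at -0.20, AKR1C2 at -0.88 and AKR1A1 at -0.38. On that side AKR1C3 and AKR1B1 were at 0.38 and AKR1B10 at 1.32.

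Other genes of the family had fewer counts than each of the 6 members in every library, a comparison not made per length. AKR1C4, the liver enzyme of the same cluster, had 25, 5, 18, 29 and 8 counts in sh1088, sh1196, the sh control, overexpression and the pCDH control. AKR1B15 had 61, 38, 42, 89 and 89 counts, and AKR1E2 had 133, 184, 115, 81 and 102. AKR7A2 had 93, 171, 134, 125 and 194, and KCNAB2 had 84, 63, 44, 113 and 176. Counts of AKR1B10P1, a processed pseudogene that shares letters with AKR1B10, were 62, 61, 94, 201 and 222, and those of the 7 listed AKR1B1 pseudogenes did not pass 8 in any library. Of 11 other aldo-keto reductases 6 passed the filter in the knockdown fit, and edgeR called 0, with 3 above and 3 below 0 and a median log2 fold change of -0.068 against 0.066 for all genes. AKR7A2, which reduces succinic semialdehyde, was at -0.51 in that fit (SE 0.49, edgeR adjusted p = 0.869).

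The 4 further lists around these enzymes were counted in the same way. Of 27 genes of the NRF2 pathway, all 27 passed the filter and edgeR called 0 in knockdown, with a median of 0.14. SLC7A11, the cystine importer, was at -1.002 in sh1088 and -1.45 in sh1196 against the sh control (fit -1.21, SE 0.54, edgeR adjusted p = 0.828), and KEAP1 was at 0.74 and 0.73 (fit 0.73, SE 0.48, adjusted p = 0.828). The drug exporter ABCC1 had a fitted value of 0.82 (SE 0.60, edgeR adjusted p = 0.844), and UGT1A6, a glucuronosyltransferase whose exons are shared with its neighbours and whose count is uncertain, 2.59 (SE 1.45, adjusted p = 0.828). In overexpression against the pCDH control 5 of 26 were higher by 2-fold or more and 5 lower by as much, near the 15.0% and 13.9% of all genes, with a median of 0.11.

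NADPH, the cofactor of the reductases, is supplied by 9 listed enzymes, of which 8 were found in the tables. EdgeR called 0 of 8 in knockdown, with a median of 0.061. In overexpression against the pCDH control 3 of 8 were at least 2-fold higher and 0 lower (15.0% and 13.9% of all genes), with a median of 0.57 against 0.068 for all genes. Those named by rank included MTHFD1, a folate enzyme, at 1.28 (95% counting interval 1.18 to 1.39), IDH1, the cytosolic isocitrate dehydrogenase, at 1.31 (1.19 to 1.44), and TALDO1 of the pentose phosphate pathway at 0.68 (0.60 to 0.75). Against the sh control 1 of 8 was at least 2-fold higher, where 8.51% of all genes were, with a median of 0.30.

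Of 19 other carbonyl and aldehyde enzymes 18 passed the filter, edgeR called 0 in knockdown, and the median was -0.036. DCXR, a xylulose reductase, was at -0.66 in sh1088 and -1.24 in sh1196 (fit -0.92, SE 0.46, edgeR adjusted p = 0.828). KHK, the ketohexokinase of fructose metabolism, was at 0.81 and 1.29 (fit 1.07, SE 0.72, edgeR adjusted p = 0.830). In overexpression 4 of 17 were at least 2-fold higher than the pCDH control and 1 lower, beside the same 15.0% and 13.9% of all genes, with a median of 0.51. Against the sh control 0 of 16 reached 2-fold either way, where 8.51% of all genes were higher and 10.9% lower by that much. ALDH2, the mitochondrial aldehyde dehydrogenase, was at 0.91 (0.80 to 1.01) and CBR3, a carbonyl reductase, at -1.04 (-1.69 to -0.42) against the pCDH control.

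Of 16 steroid and prostaglandin enzymes, which share substrates with AKR1C1 to AKR1C3, all 16 passed the filter and edgeR called 0 in knockdown, with 11 above and 5 below 0 and a median of 0.27. HSD17B7 was at 1.78 in sh1088 and 1.91 in sh1196 (fit 1.84, SE 0.73, edgeR adjusted p = 0.828), and HSD17B11 at 0.95 and 1.23 (fit 1.10, SE 0.49, adjusted p = 0.828). SRD5A1, the steroid reductase that makes dihydrotestosterone, was at -0.78 and -1.75 (fit -1.19, SE 0.57, edgeR adjusted p = 0.828). In overexpression 4 of 13 were at least 2-fold higher than the pCDH control and 1 lower (15.0% and 13.9% of all genes), with a median of 0.24, and PTGES2, a prostaglandin E synthase, was at -1.21 (-1.40 to -1.03).

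The genes whose levels ran most like those of the members were ranked by the root mean square difference of centred log2 CPM over the 5 libraries, among 5884 genes. For AKR1C1 plus AKR1C2 they included SKA2 (0.11) and JMY (0.11). AKR1C3 was followed by MAP2K6 (0.11), ANXA4 (0.18) and AHR (0.18), and AKR1B1 by NUP43 (0.15), TRPC4AP (0.15) and the mitochondrial tRNA gene MT-TP (0.19). For AKR1B10 the nearest were C1S (0.17), KRT19 (0.18) and SYNE2 (0.20), and for AKR1A1 HEBP1 (0.025), RPS29 (0.049) and SRGAP1 (0.052). With 5 libraries a close pattern is a description of these libraries only.

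The authors' deposited table for knockdown classed none of the 6 members as changed, with adjusted p-values of 0.204 for AKR1C1 to 0.881 for AKR1B10. Their deposited table for overexpression classed 3 as up: AKR1B1 with a log2 fold change of 1.63 and an adjusted p of 1.85e-08, AKR1C1 with 1.79 and 1.72e-05, and AKR1C3 with 1.26 and 0.00201. AKR1B10 (0.73), AKR1C2 (0.52) and AKR1A1 (0.51) were not classed as changed in the authors' deposited table. That comparison has 1 library on each side in these data, and the way its p-values were made is not given in the sources used here.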

How the data were processed

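Gene tables of 5 A549 libraries were analysed. Per the file headers, the authors deposited RSEM expected counts (with a posterior mean and standard deviation), TPM and FPKM per gene, the last 2 scaled by effective length. RSEM 1.3.1, STAR 2.4.2, DESeq2 and Bowtie are listed in the submitters' processing notes without their roles. Per the file headers, the authors also deposited a table for each arm with log2 fold changes, p-values and classes. The genome build is not given in the sources used here. Of 58929 gene identifiers 58656 matched GENCODE 29 (GRCh38) without the version number, and positions and coding sequences come from that release.

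Expected counts were rounded. Knockdown (2 libraries against 1, with 1 residual degree of freedom, the lone control being assumed to vary like the others) and the RBMS1 level (5 libraries, 2 residual degrees of freedom) were fitted over all genes with edgeR 4.0.16 in R 4.3.3 (quasi-likelihood, TMM, filterByExpr, Benjamini-Hochberg at 0.05), and values are given for the members and for genes named by the rules below. For 1 library against 1, log2 ratios carry exact conditional 95% intervals, over genes with a mean CPM of at least 5. In that case called means at least 2-fold. Shares have Clopper-Pearson intervals. DESeq2 1.42.0 and limma 3.58.1 (voom) were alternatives. Likeness was ranked over genes with a mean CPM of at least 20, naming 3 a member, and up to 4 genes of each list with the smallest knockdown p are named. Some genes that these rules pick are not reported here. The members and lists were chosen with earlier results of these data known.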

Additional observations from a re-analysis of the deposited data

How the results depend on the processing

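Of the single-member values recomputed under alternatives, 141 kept their direction and side of the threshold or moved within their error, 35 moved, 25 reversed and 1 gained a call. No member was called in knockdown under any of the 8 alternatives with a test. Reversals in knockdown came with the pCDH control as the reference (AKR1C1 1.21, AKR1C2 0.82, AKR1C3 0.79, AKR1A1 0.75), with both controls together (AKR1C3 0.095, AKR1A1 0.14), on log2(TPM + 1) (AKR1C1 0.079, AKR1C2 0.48, AKR1C3 0.76, AKR1B10 0.95, AKR1A1 0.81) and on log2(FPKM + 1) (AKR1C3 0.16, AKR1B10 0.35, AKR1A1 0.24). The TPM and FPKM values are not set against a median of all genes, which was not computed against the sh control. For sh1196 against sh1088 the median log2 TPM ratio was 0.84, over genes with TPM of at least 1 in both. The part of such a shift in these reversals was not tested. Scaling by total counts moved the median of all genes in knockdown to 0.62, against 0.066 by TMM. The reversed values there (AKR1C3 0.033, AKR1B10 0.28, AKR1A1 0.24) all lie below that median. With 1 hairpin left out, knockdown ranged over -1.25 to 0.17 for AKR1C3, -0.37 to 0.70 for AKR1B1 and -0.74 to 0.25 for AKR1B10. In the RBMS1 level fit the count of members called was 0 to 1 with a library left out, and the slope of AKR1B1 ranged over -0.27 to 1.88. Without the vector term AKR1B1 was at -0.016 and AKR1A1 at -0.057. In overexpression the 4 members at least 2-fold higher became 1 with the sh control as the reference, where AKR1C1 was at -0.042, and 2 on log2(TPM + 1). For overexpression against the pCDH control the median log2 TPM ratio was -0.78, over genes with TPM of at least 1 in both. Relative to that median the members lay at 0.84 (AKR1A1) to 2.11 (AKR1C3), with AKR1C2 at 1.14. The share of all genes past 2-fold by TPM was not computed. The 4 members past 2-fold between hairpins became 2 by total counts, AKR1C1 at -1.44 and AKR1B1 at 1.70. On that scale 2.03% of genes were as far lower and 29.3% as far higher, and the median of all genes was 0.66. Relative to that median AKR1C2 lay at -1.33, AKR1C3 at -1.46 and AKR1B10 at -1.02. Shares of AKR1C1 by TPM were 8.16%, 6.05%, 9.07%, 18.2% and 11.8% in sh1088, sh1196, the sh control, overexpression and the pCDH control. Genes of the 5 lists at least 2-fold higher in overexpression numbered 16 of 68 against the pCDH control (15.0% of all genes) and 6 of 67 against the sh control (8.51%), beside 7 and 6 at least 2-fold lower. Apart from the construction of each alternative, the cause was not tested. No paired analysis was possible because the labels give no replicate numbers shared between groups. Depth limits little for the members, the smallest count of which was 539, and the number of libraries limits every comparison.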
